A study of Mus musculus with 4 samples.

Results

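The 7 genes described here encode the core of the RAS-RAF-MEK-ERK cascade: the RAS GTPases *Hras* and *Nras*, the RAF kinases *Braf* and *Araf*, the MEK kinases *Map2k1* and *Map2k2*, and the ERK kinase *Mapk3*. They were picked by symbol as members of the cascade, with no threshold on their values but with earlier results of these data known, from the 32285 genes counted on Visium slides, which hold barcoded spots that capture the mRNA of the cells lying above them. All 7 were detected, and 22107 of the 32285 genes had at least 1 UMI (unique molecular identifier, a tag that marks 1 captured mRNA). The remaining paralogs of these families were not analysed here.

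The 4 brain sections analysed, numbered 1 to 4, all carried the genotype *Nf1*+/-, a germline heterozygous mutation of the neurofibromin gene present in every cell type. The labels give no age, sex or allele for these animals, the study kept its mice on a C57/BL6 background, and no wild-type section was analysed here. The study used the sections to compare focal areas crowded with oligodendrocyte precursor cells (OPCs) with other areas. Nothing in the labels ties a section to a mouse, so n counts sections, and the spread between sections may be technical. The edgeR p-values below use a variance shared in part across genes, not the spread of 1 gene between its sections alone.

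Neurofibromin, the product of *Nf1*, accelerates the hydrolysis of GTP by RAS and so holds RAS in its inactive form. Active RAS recruits RAF kinases to the membrane, RAF phosphorylates MEK, and MEK phosphorylates ERK, which acts on kinases and transcription factors. In the brain this cascade takes part in synaptic plasticity in neurons and in the proliferation and maturation of the oligodendroglial lineage. The counts below are of mRNA, whereas the activity of these proteins is set largely by GTP loading and phosphorylation, which were not measured here.

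RefSeq places the genes on the mouse assembly GRCm38.p6 (mm10) as follows. The RAS genes lie at chr7:141189934-141194019 (*Hras*) and chr3:103058285-103067914 (*Nras*). The RAF genes lie at chr6:39603231-39725658 (*Braf*) and chrX:20797707-20860521 (*Araf*). The MEK genes lie at chr9:64185769-64253605 (*Map2k1*) and chr10:81105913-81124697 (*Map2k2*), and *Mapk3* lies at chr7:126759626-126765816. The interval of *Araf* overlaps that of *Syn1*, a synaptic vesicle gene on the opposite strand that was also 1 of the neuron markers below, by 11 bases, and *Uchl4* lies within the interval of *Map2k1*. Larger overlaps were those of *Braf* with the lncRNA *Gm34389* (27231 bases) and of *Araf* with the pseudogene *Gm15028* (4612 bases). How reads from such overlaps were assigned, by strand or otherwise, is not given in the sources used here.

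The promoters of *Hras* and *Nras* are shown because these paralogs were the furthest apart in level. Of this pair, only *Hras* was called higher in spots with striatal markers than in those with deep-layer cortex markers (below). The windows, of 300 bases each, are from RefSeq (GRCm38.p6), chr7:141193955-141194254 on the minus strand for *Hras* and chr3:103058035-103058334 on the plus strand for *Nras*, written 5′ to 3′ along the gene. Capitals mark GGGCGG, the GC box, on either strand.
Hras: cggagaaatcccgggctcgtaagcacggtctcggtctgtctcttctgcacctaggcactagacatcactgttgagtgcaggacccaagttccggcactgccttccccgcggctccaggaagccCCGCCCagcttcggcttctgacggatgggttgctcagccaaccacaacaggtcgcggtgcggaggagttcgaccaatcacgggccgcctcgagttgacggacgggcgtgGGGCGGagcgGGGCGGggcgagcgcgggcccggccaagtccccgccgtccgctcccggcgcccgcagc
Nras: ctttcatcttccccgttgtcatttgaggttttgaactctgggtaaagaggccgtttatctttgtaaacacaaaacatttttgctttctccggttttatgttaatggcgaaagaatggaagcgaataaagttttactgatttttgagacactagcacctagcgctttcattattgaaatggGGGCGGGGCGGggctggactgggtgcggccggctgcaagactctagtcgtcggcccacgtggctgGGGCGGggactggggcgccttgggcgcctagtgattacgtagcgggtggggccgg
The *Hras* window held 69.0% G and C and 34 CG pairs, the *Nras* window 52.3% and 19, and the median promoter of the 32851 listed by RefSeq here held 52.7% and 7. Each window held 3 GC boxes, of which a pair in *Nras* overlap, and 35.7% of the 32851 promoters held at least 1. The *Hras* window also held the CCAAT motif 1 time (in 37.4% of all promoters) and TGACG 2 times (20.8%), and the *Nras* window held CACGTG 1 time (7.15%). Neither held TATAAA (13.6%). These are matches of letters only. A window was found for 6 of the 7 genes.

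Within each section, spots with at least 500 UMIs were used, which left 1537, 2358, 2294 and 1431 spots in sections 1 to 4, with 19261103 to 37001945 UMIs per section and medians of 8862.5 (section 3) to 15296.5 UMIs per spot. A spot covers several cells, so the spot groups below are mixtures and not cell types. Between 427 and 1989 spot barcodes were shared by pairs of sections, because Visium barcodes are slide positions that recur from slide to slide. Sections differed from each other by more than sampling noise, with a chi-square per degree of freedom of 14.5 to 55.4.

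All 7 genes were detected throughout, and their order of level was the same in every section. Levels are given as CPM, the UMIs of a gene scaled to 1000000 UMIs in the section. Because a UMI marks the captured 3′ end of 1 mRNA, they were not divided by gene length, and differences between genes in capture were not corrected.

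Of the RAS genes, *Hras* was counted at 300.1, 312, 310 and 283 CPM in sections 1 to 4 (mean 301 ± 13.3, SD, n = 4), from 30865 UMIs. *Nras* was counted at 27.5, 27.7, 26.9 and 25.6 CPM (mean 26.9 ± 0.937, SD, n = 4), from 2754 UMIs. *Hras* was thus the highest and *Nras* the lowest of the 7 genes.

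Of the RAF genes, *Araf* was counted at 217, 177, 198 and 209 CPM (mean 200.3 ± 17.6, SD, n = 4). *Braf* was counted at 50.7, 57.3, 55.2 and 57.0 CPM (mean 55.0 ± 3.06, SD, n = 4). The pair moved in opposite ways between sections 1 and 2, with *Araf* highest and *Braf* lowest in section 1.

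Of the MEK genes, *Map2k1* was counted at 261, 249.6, 231 and 244 CPM (mean 246 ± 12.3, SD, n = 4), and *Map2k2* at 81.2, 90.3, 90.9 and 83.6 CPM (mean 86.5 ± 4.83, SD, n = 4). *Mapk3* was counted at 159, 151, 155 and 130.4 CPM (mean 149 ± 12.6, SD, n = 4), lowest in section 4. The order from high to low was *Hras*, *Map2k1*, *Araf*, *Mapk3*, *Map2k2*, *Braf* and *Nras*, and no neighbours in this order overlapped between sections.

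**Figure D1:**
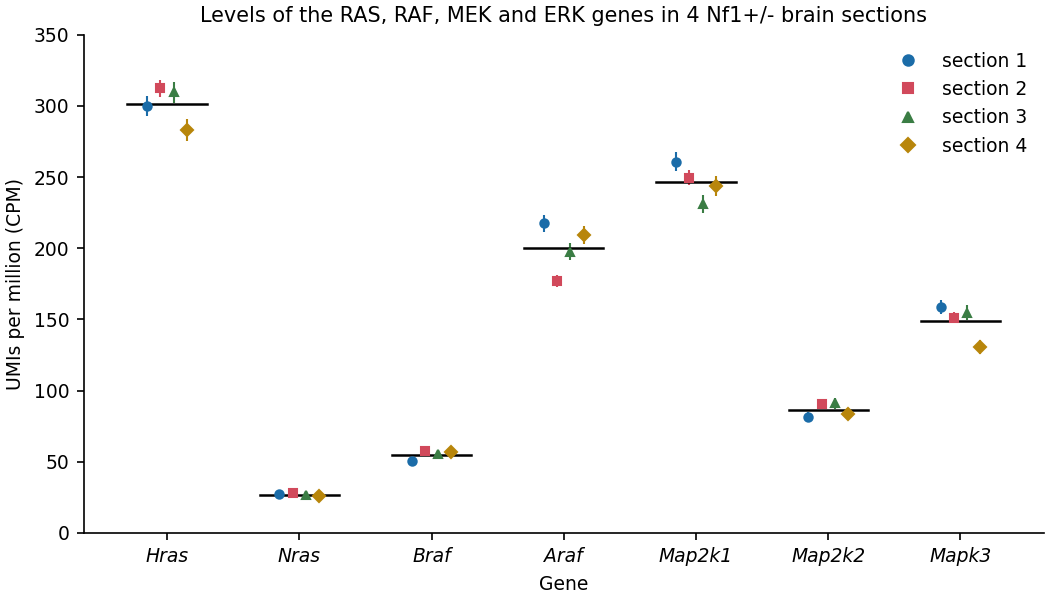
Level of each gene, in CPM, in the 4 *Nf1*+/- brain sections. Points are sections with exact 95% Poisson intervals (counting error only), and lines are means; *Hras* lay at 283 to 312 CPM and *Nras* at 25.6 to 27.7.

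The levels varied little between sections. The ratio of the highest to the lowest section was at most 1.23, for *Araf*. The SD of the log2 level had a median of 0.081 over the 7 genes, against 0.12 (quartiles 0.080 and 0.17) over 9384 genes with a mean of at least 10 CPM. *Araf* and *Mapk3* stood above the median of 0.12, both at 0.13, and *Nras* was lowest at 0.051. The 9384 genes were not matched to the 7 by level, and counting error adds more to the SD at low levels.

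The detection of a gene in single spots followed its level and the depth of the section. *Hras* had a UMI in 83.0% (section 3) to 94.0% (section 2) of spots, with at most 26 UMIs in a spot. *Nras* had a UMI in 21.1% (section 3) to 33.6% (section 2) of spots, with at most 5 in a spot. Section 3, the shallowest, had the lowest share of spots with a UMI for all 7 genes.

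Within each paralog pair, 1 gene held most of the UMIs. *Hras* made up 91.6%, 91.9%, 92.0% and 91.7% of the UMIs of *Hras* and *Nras* in sections 1 to 4. *Map2k1* made up 76.3%, 73.4%, 71.8% and 74.5% of the MEK pair. *Braf* made up 18.9%, 24.5%, 21.9% and 21.4% of the RAF pair, lowest in section 1.  Summed by pair, the RAS genes reached 309 to 340 CPM, the RAF genes 234 to 268 CPM and the MEK genes 322 to 342 CPM. Paralogs not analysed here are missing from these sums, so the sums are not totals of the steps and do not rank them.

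To ask where in the tissue these genes were high, spots were grouped by marker genes. Choroid plexus-marker spots, those with UMIs of at least 3 of 10 choroid plexus epithelium markers, were set aside first, and sections 1 and 4 had enough of them (189 and 76 spots, against 4 and 7 in sections 2 and 3). Of the other spots, the top 20% by 8 neuron markers were called neuron-rich and the top 20% by 8 myelin markers myelin-rich, from 260 to 444 spots of each kind per section. Spots in both groups were left out. Neuron-rich spots were lower in striatal and higher in upper-layer cortex markers than myelin-rich spots, as given below, so the groups differed in region too.

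The markers showed how far the groups were mixed. All markers of the neuron and myelin lists were detected in both groups in every section. The summed neuron markers in myelin-rich spots were at 40.9% to 51.5% of their level in neuron-rich spots, and the summed myelin markers in neuron-rich spots at 13.97% to 20.04% of their level in myelin-rich spots. Choroid plexus markers summed to 779 and 1611 CPM in choroid plexus-marker spots and to at most 39.5 CPM in neuron-rich spots. Neuron markers in the choroid plexus-marker spots were at 55.6% (section 1) and 25.7% (section 4) of the neuron-rich level, and myelin markers at 27.7% and 54.9% of the myelin-rich level. Ependyma markers summed to 258 and 418 CPM there. These spots thus held much other tissue. They were picked by the number of markers detected, without regard to the depth of a spot. Their medians were 15886 UMIs in section 1 and 6566 in section 4, against 14922 and 12232 over all spots used.

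UMIs were summed over each group in each section and compared by edgeR's quasi-likelihood test over 13379 genes, with the section as a block. Of genes other than the markers, 19.6% were called higher (adjusted p under 0.05) and 18.4% called lower in myelin-rich than in neuron-rich spots. With scaling to total UMIs, 2248 genes were called higher and 3054 lower, and the share of calls that were higher went from 51.6% to 42.4%. Of the 7 cascade genes, 2 were called higher, *Nras* and *Mapk3*, and none lower, a share near that background. The median log2 fold change was -0.0079 over the 7 genes and 0.014 over all genes tested.

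*Mapk3*, the ERK kinase, was counted at 178, 156, 193 and 160.4 CPM in the myelin-rich spots of sections 1 to 4. In the neuron-rich spots it was counted at 168, 139.7, 140.3 and 98.3 CPM. It was higher in myelin-rich spots in 4 of 4 sections, by much less in sections 1 and 2 than in sections 3 and 4, and the groups overlapped across sections. The fitted log2 fold change was 0.41 (SE 0.098, 95% interval 0.20 to 0.62, edgeR adjusted p = 0.00446). Without the block the adjusted p was 0.0568, and over the 12 alternatives it ranged from 0.000149 to 0.0568.

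*Nras* was counted at 31.8, 29.2, 39.5 and 34.8 CPM in the myelin-rich spots and at 30.9, 26.0, 27.0 and 23.3 CPM in the neuron-rich spots. It too was higher in 4 of 4 sections, mainly in sections 3 and 4, on sums of only 64 to 246 UMIs. The fitted log2 fold change was 0.39 (SE 0.12, 95% interval 0.12 to 0.65, edgeR adjusted p = 0.0231). The call was lost in 4 of 12 alternatives: the adjusted p was 0.142 without section 3, 0.0652 without section 4, 0.111 by DESeq2 and 0.0527 with scaling to total UMIs.

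*Braf*, the RAF paralog with the lower level, was counted at 45.6, 48.4, 40.2 and 52.2 CPM in the myelin-rich spots and at 50.1, 58.8, 56.0 and 60.6 CPM in the neuron-rich spots. It was lower in 4 of 4 sections, and its log2 fold change of -0.21 (SE 0.092, 95% interval -0.41 to -0.012) had an adjusted p of 0.0878 by edgeR, so it was not called. It was called with scaling to total UMIs (-0.28, edgeR adjusted p = 0.0284) and with the top 10% of spots (-0.49, edgeR adjusted p = 0.00790).

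The other 4 genes did not pass the test. *Hras* was counted at 266, 327, 268 and 252 CPM in myelin-rich spots and at 289, 285, 290 and 237 CPM in neuron-rich spots, higher in sections 2 and 4 and lower in sections 1 and 3. Its log2 fold change was 0.082 (95% interval -0.11 to 0.27). The intervals were -0.19 to 0.15 for *Araf*, -0.22 to 0.11 for *Map2k1* and -0.19 to 0.17 for *Map2k2*. By CPM, *Map2k1* was lower in myelin-rich spots in 4 of 4 sections (log2 ratios -0.20, -0.063, -0.18 and -0.032). *Araf* and *Map2k2* were each lower in 3 of 4. With the top 10% of spots *Map2k1* was called lower (-0.27, edgeR adjusted p = 0.0376), and with the top 30% *Hras* was called higher (0.20, edgeR adjusted p = 0.0498).

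**Figure D2:**
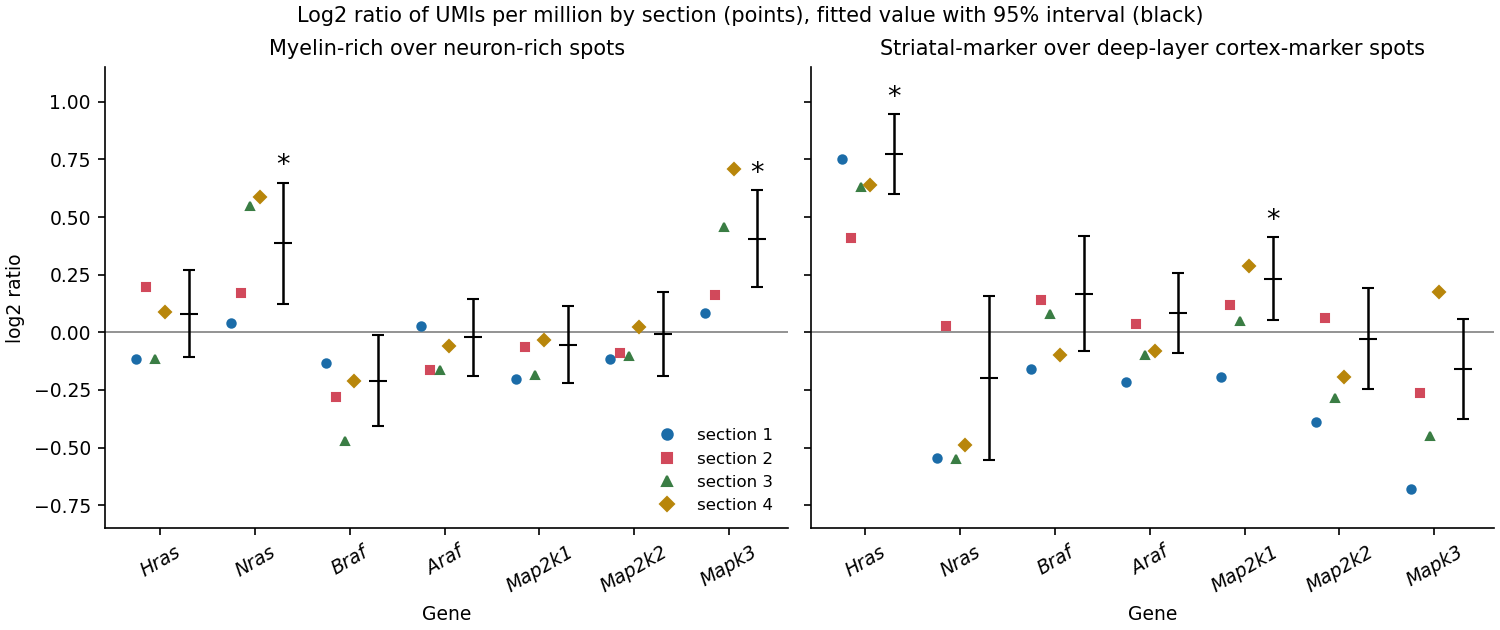
Log2 ratio between spot groups for each gene, with 1 coloured point per section for the ratio of CPM. In black is the edgeR value with its 95% interval, scaled to the bulk of genes by TMM, so it can lie off the points. An asterisk marks an adjusted p under 0.05. On the left, *Nras* and *Mapk3* lay above 0 in all 4 sections, and *Braf* and *Map2k1* below 0 in all 4. On the right, *Hras* lay above 0 in all 4.

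Other measures moved with the myelin-rich group. Myelin-rich spots had medians of 5092.5 to 9288 UMIs, against 12600.5 to 20181 in neuron-rich spots. Microglia markers summed to 335 to 447 CPM in myelin-rich and 206 to 254 CPM in neuron-rich spots, and astrocyte markers to 1549 to 1779 and 1243 to 1497 CPM. OPC markers summed to 149 to 185 and 75.3 to 90.04 CPM, fibroblast markers to 40.4 to 46.2 and 13.1 to 24.4 CPM, and ependyma markers to 28.7 to 45.6 and 7.23 to 16.6 CPM in the same order. Striatal markers summed to 1135 to 1978 CPM in myelin-rich and 260 to 507 CPM in neuron-rich spots. Upper-layer cortex markers were lower in myelin-rich than in neuron-rich spots (92.8 to 126 against 167 to 453 CPM). Deep-layer cortex markers overlapped (160 to 252 and 166 to 325 CPM). Neuron markers summed to 3209 to 4097 CPM in striatal-marker spots (defined below) and to 2922 to 3968 CPM in myelin-rich spots. The neuron-rich group thus does not stand for all neurons. The part of these differences in the results for the 7 genes, called or not, and in the paralog ratios below was not tested. That includes *Hras*, which was high in striatal-marker spots (below). Fewer cells of a type in a spot and less RNA per cell cannot be told apart in these sums. Per 100 spots, all 7 genes had fewer UMIs in myelin-rich spots, from 515 to 224 for *Hras* and from 257 to 137 for *Mapk3* (means of 4 sections).

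The 3 paralog ratios were compared between the same groups, section by section, by an exact two-sided sign-flip permutation test, for which 4 sections allow no p below 0.125. The log2 ratio of *Braf* to *Araf* was lower in myelin-rich spots in 4 of 4 sections, by -0.16, -0.11, -0.31 and -0.15 (mean -0.18 ± 0.085, SD, exact p = 0.125). The ratio of *Hras* to *Nras* differed by -0.16, 0.024, -0.66 and -0.50 (mean -0.32 ± 0.31, SD, exact p = 0.25). The ratio of *Map2k1* to *Map2k2* differed by -0.087, 0.026, -0.082 and -0.055 (mean -0.050 ± 0.052, SD, exact p = 0.25). Adjusted over the 3 ratios, each exact p was 0.25. As shares, *Hras* held 90.3% to 91.6% of the RAS pair in neuron-rich spots and 87.2% to 91.8% in myelin-rich spots.

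**Figure D3:**
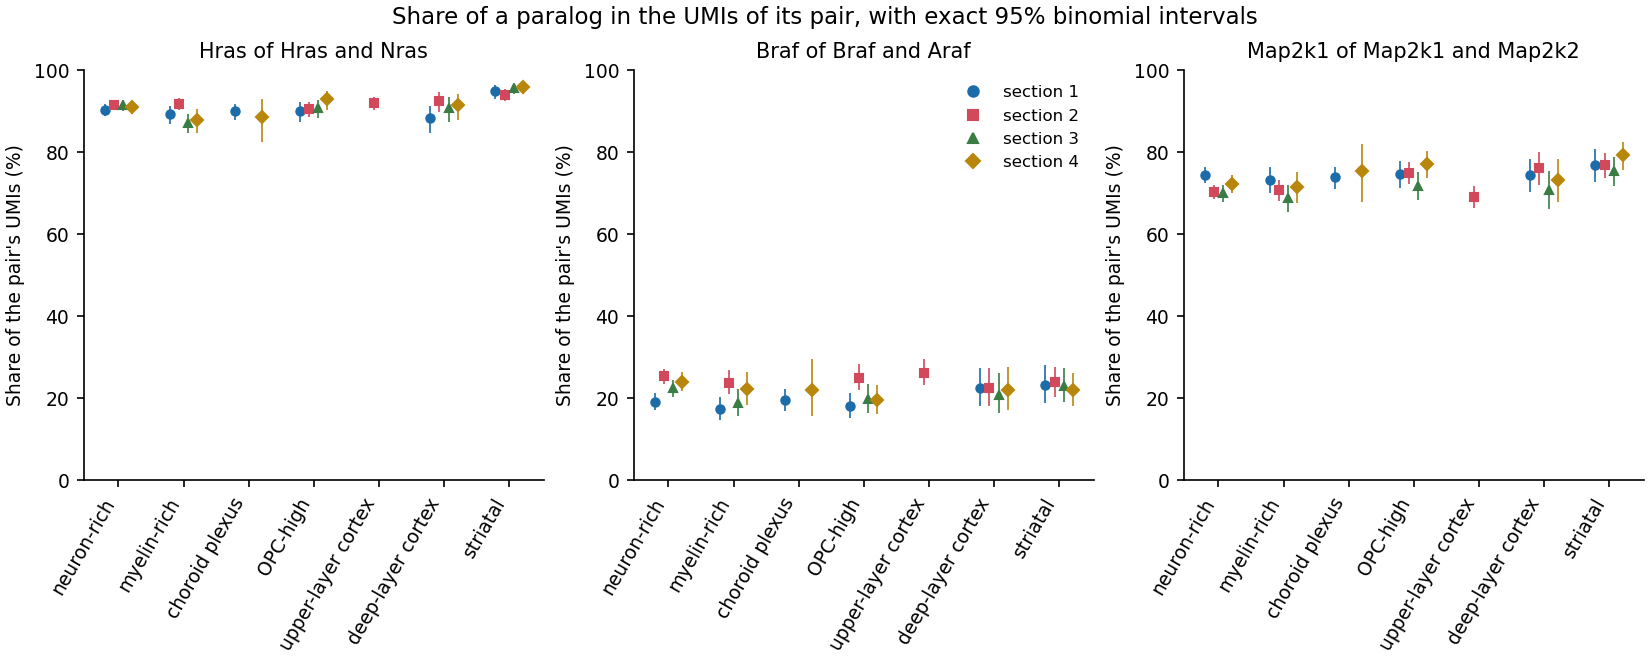
Share of 1 paralog in the summed UMIs of its pair (%), by spot group, with 1 point per section and exact 95% binomial intervals (counting error only). *Hras* and *Map2k1* held most of their pairs and *Braf* the smaller part of its pair in every group shown, and *Hras* reached 94.0% to 95.9% in striatal-marker spots.

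In choroid plexus-marker spots, no difference in the 7 genes was called by the main test. These spots hold tissue of the secretory epithelium that makes cerebrospinal fluid, mixed with other brain tissue. When at least 5 of the 10 markers were required, *Map2k1*, *Mapk3* and *Hras* were each called in 1 comparison. More of all genes were then called against myelin-rich spots too, as given at the end. The numbers of spots and sections behind that setting are not given here. Against neuron-rich spots, edgeR called 13.4% of genes higher and 9.62% lower in choroid plexus-marker spots, and 34.8% had an unadjusted p under 0.05. The 3074 genes called fell to 1667 without section 4. None of the 7 genes was called or had an unadjusted p under 0.05, and DESeq2 called 0 of 7. *Map2k1* was counted at 235 and 197 CPM in sections 1 and 4, against 253 and 234 CPM in neuron-rich spots (log2 fold change -0.068, 95% interval -0.30 to 0.17). In spots with at least 5 of the 10 choroid plexus markers, *Map2k1* was called lower (-0.52, edgeR adjusted p = 0.0127).

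Against myelin-rich spots, edgeR called 3.72% of genes higher and 2.02% lower, and 16.4% had an unadjusted p under 0.05. None of the 7 genes was called, by edgeR or by DESeq2, and 1 of 7, *Mapk3*, had an unadjusted p under 0.05. *Mapk3* was counted at 150.4 and 99.5 CPM in choroid plexus-marker spots, against 178 and 160.4 CPM in myelin-rich spots. It was lower in 2 of 2 sections (log2 fold change -0.41, 95% interval -0.73 to -0.087, edgeR adjusted p = 0.154), and was called in 4 of 14 alternatives. Among these, spots with at least 5 markers gave -0.77 (edgeR adjusted p = 0.0206), and *Hras* was then called too (-0.49, edgeR adjusted p = 0.0468). The comparisons with choroid plexus-marker spots share their neuron-rich and myelin-rich sums with the one above. Only 19 to 90 UMIs of *Nras* lay behind each choroid plexus-marker value, and its intervals against the other groups reached from -0.33 to 0.53 and from -0.72 to 0.16.

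The OPC-marker-high spots, the top 10% of each section by 8 OPC markers, were compared with all other spots because the study asked about OPC-dense areas, whose outlines were not used here. Of 14934 genes tested, edgeR called 2.59% higher and 3.17% lower, other than the markers, and 17.1% had an unadjusted p under 0.05. The 860 genes called fell to 8 without the block, to 448 without section 2 and to 535 without section 3. None of the 7 genes had either an adjusted or an unadjusted p under 0.05, and DESeq2 called 0 of 7. *Hras* was counted at 261, 308, 305 and 278 CPM in OPC-marker-high spots, against 304, 313, 310 and 283 CPM in the other spots. It was lower in 4 of 4 sections, mostly in section 1 (log2 fold change -0.080, 95% interval -0.18 to 0.018, edgeR adjusted p = 0.434). The widest interval was that of *Nras* (-0.12 to 0.30). In these spots myelin markers were at 129% to 143% and neuron markers at 80.6% to 86.5% of their level in the other spots.

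Gray matter regions were told apart by further marker lists, with the top 5% of spots for each. Striatal and deep-layer cortex spots could be used in all 4 sections and upper-layer cortex spots in section 2 only, where the median spot held at least 3 markers of the region. Hippocampal and subcortical spots were not used, because their median spot held fewer in every section. *Hras* stood apart in the striatum, the input nucleus of the basal ganglia, which is built mainly of medium spiny neurons.

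*Hras* was counted at 479, 438, 501 and 487 CPM in the striatal-marker spots of sections 1 to 4 (mean 476 ± 27.3, SD, n = 4). It was counted at 284, 329, 323 and 312 CPM in the deep-layer cortex-marker spots (mean 312 ± 20.01, SD, n = 4) and at 309 CPM in the upper-layer cortex-marker spots of section 2. All 4 striatal values lay above the deep-layer values, and also above the neuron-rich, myelin-rich and choroid plexus-marker values, which reached at most 327 CPM.

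**Figure D4:**
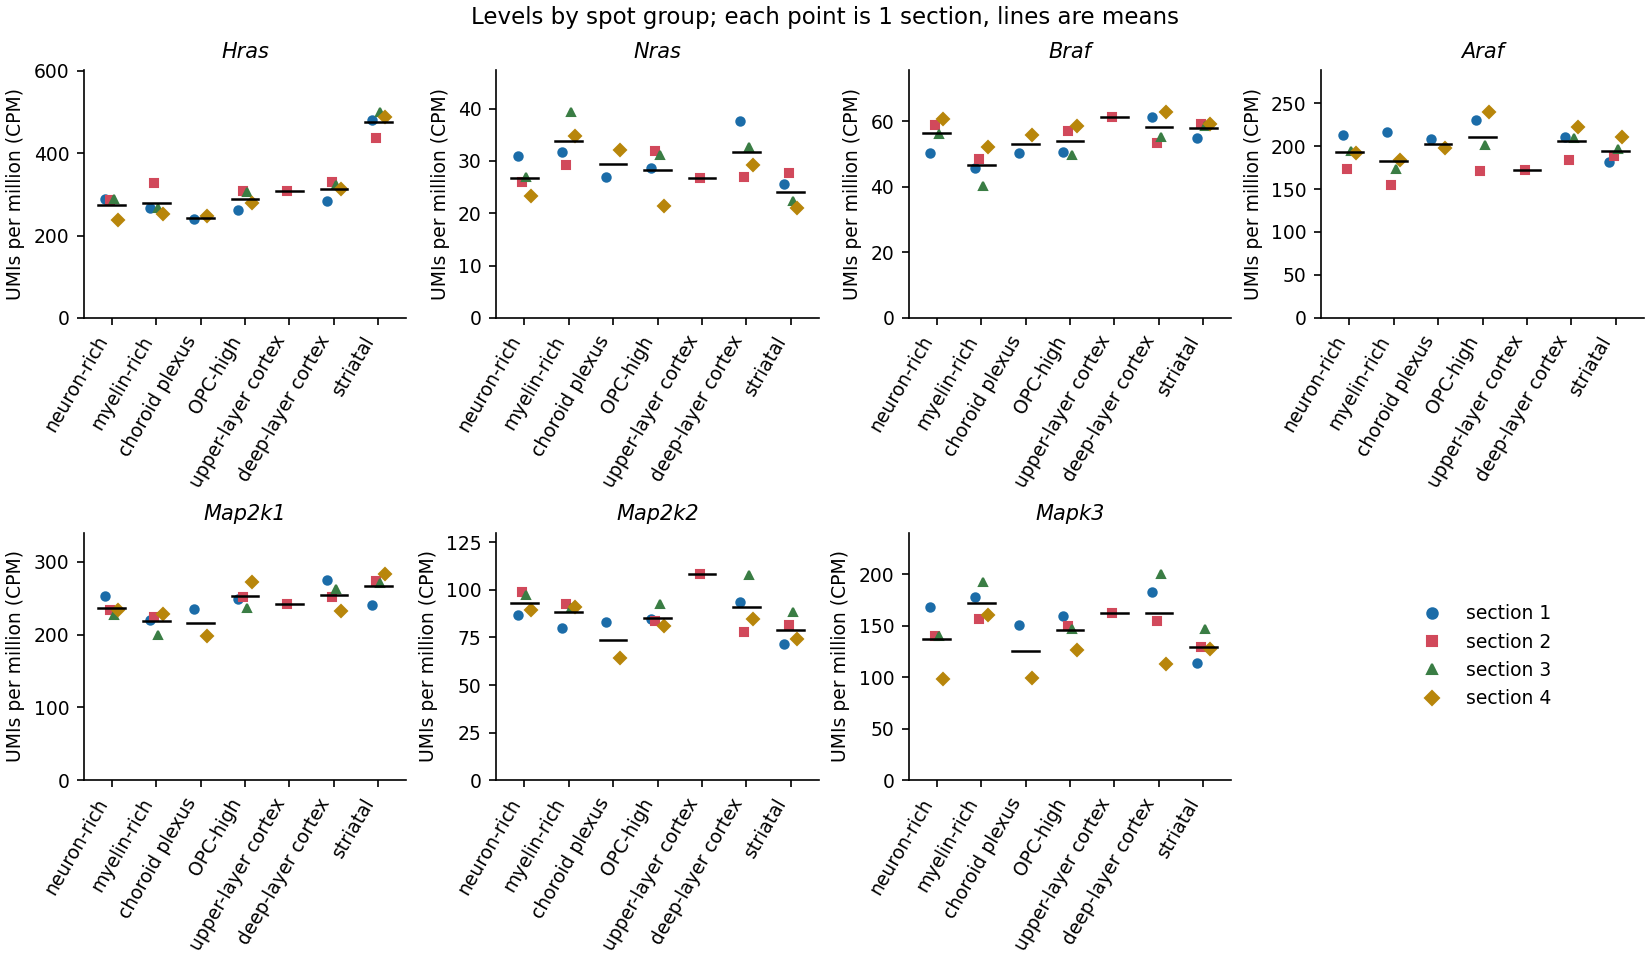
Level of each gene, in CPM, in 7 spot groups, with 1 point per section and lines at the means (choroid plexus-marker spots in 2 sections, upper-layer cortex-marker spots in 1). *Hras* averaged 476 CPM in striatal-marker spots and 244 to 312 CPM in the groups of other markers.

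After these levels had been seen, striatal-marker spots were compared with deep-layer cortex-marker spots by the same test over 10857 genes. Of genes other than the markers, edgeR called 14.8% higher and 15.4% lower in striatal-marker spots. Of the 7 cascade genes, *Hras* and *Map2k1* were called higher and none lower. With scaling to total UMIs in place of TMM, the median of all genes shifted by -0.16 on the log2 scale, and the share of calls that were higher went from 49.0% to 27.3%, so the values below are relative to the bulk of genes.

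The log2 fold change of *Hras* was 0.77 (1.71 times, SE 0.085, 95% interval 0.60 to 0.95, edgeR adjusted p = 6.42e-09), and *Hras* was higher in 4 of 4 sections. The log2 ratios of CPM in sections 1 to 4 were 0.75, 0.41, 0.63 and 0.64, all below this fitted value, which uses TMM scaling. It was called in all 9 alternatives, with adjusted p from 6.33e-19 to 6.59e-06, but these reuse the same sections. *Hras* was seen to be high before the test was added, so neither the test nor the alternatives add independent support. Its p only describes the size of the difference against a spread shared in part across genes.

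*Map2k1* was counted at 240.1, 273, 271 and 283 CPM in striatal-marker and at 274, 251, 262 and 232 CPM in deep-layer cortex-marker spots, higher in 3 of 4 sections. Its log2 fold change was 0.23 (SE 0.088, edgeR adjusted p = 0.0437), and the call was lost in 6 of 9 alternatives, with adjusted p up to 0.630 under scaling to total UMIs (log2 fold change 0.063). Without section 2, 3 or 4 the edgeR adjusted p was 0.103, 0.109 or 0.280.

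*Mapk3* was counted at 114, 129, 147 and 127 CPM in striatal-marker and at 183, 155, 200.3 and 113 CPM in deep-layer cortex-marker spots. It was lower in sections 1, 2 and 3 and higher in section 4 (log2 fold change -0.16, edgeR adjusted p = 0.289). Without section 4 it was called lower (-0.32, edgeR adjusted p = 0.00836), as it was with scaling to total UMIs (-0.32, edgeR adjusted p = 0.0199). *Nras* was counted at 25.6, 27.7, 22.4 and 20.9 CPM in striatal-marker and at 37.6, 27.0, 32.8 and 29.3 CPM in deep-layer cortex-marker spots (log2 fold change -0.20, edgeR adjusted p = 0.434).

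Shares within the RAS pair followed. *Hras* held 94.9%, 94.0%, 95.7% and 95.9% of the pair in the striatal-marker spots and 88.3%, 92.4%, 90.8% and 91.4% in the deep-layer cortex-marker spots of the same sections, with no overlap. The intervals of the log2 fold change for the genes not called were -0.082 to 0.42 for *Braf*, -0.089 to 0.26 for *Araf* and -0.25 to 0.19 for *Map2k2*. By CPM, *Araf* was lower in striatal-marker spots in 3 of 4 sections, although its fitted value was 0.084. Neuron markers summed to 3209 to 4097 CPM in striatal-marker and 6217 to 6913 CPM in deep-layer cortex-marker spots, and myelin markers to 2351 to 3174 and 2915 to 4024 CPM. Striatal-marker spots were deeper in every section, with medians of 13051 to 22900 UMIs against 8214 to 17443.5 in deep-layer cortex-marker spots. Striatal markers summed to 287 to 998 CPM in deep-layer cortex-marker spots and to 4431 to 5135 CPM in striatal-marker spots. The part of these differences in the result for *Hras* was not tested.

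The other genes of the pathway were described by 46 genes in 5 lists, of which 45 were tested in myelin-rich against neuron-rich spots. Of these, 14 were called higher and 13 lower, against 19.6% and 18.4% of all genes, and 18 were not called, with a median log2 fold change of -0.11 against 0.014 over all genes tested. Among 13 adaptors and exchange factors, 5 were higher and 4 lower. *Gab1*, a docking protein of receptor signalling, rose most in myelin-rich spots (log2 fold change 2.36, SE 0.16, edgeR adjusted p = 9.33e-08). *Rasgrp3* (1.88) and *Rasgrp2* (1.23), exchange factors of the same family, were also higher, whereas the calcium-dependent exchange factors *Rasgrf2* (-1.48) and *Rasgrf1* (-0.56) and the adaptor *Shc2* (-0.49) were lower.

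Among 9 genes of RAS processing and trafficking, 5 were higher and 2 lower, with *Golga7*, a subunit of the RAS palmitoyltransferase, at 1.10 (SE 0.086, edgeR adjusted p = 4.30e-07). Among 6 related GTPases, 2 were higher, with *Rap1a* at 1.11, and 2 lower, with *Rras2* at -0.51. Among 11 scaffolds and binding partners, 1 was higher and 4 lower, with the RAF scaffold *Cnksr2* at -0.68 (SE 0.11, edgeR adjusted p = 0.000210). Among 6 kinases and factors acting downstream of ERK, 1 was higher and 1 lower.

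**Figure D5:**
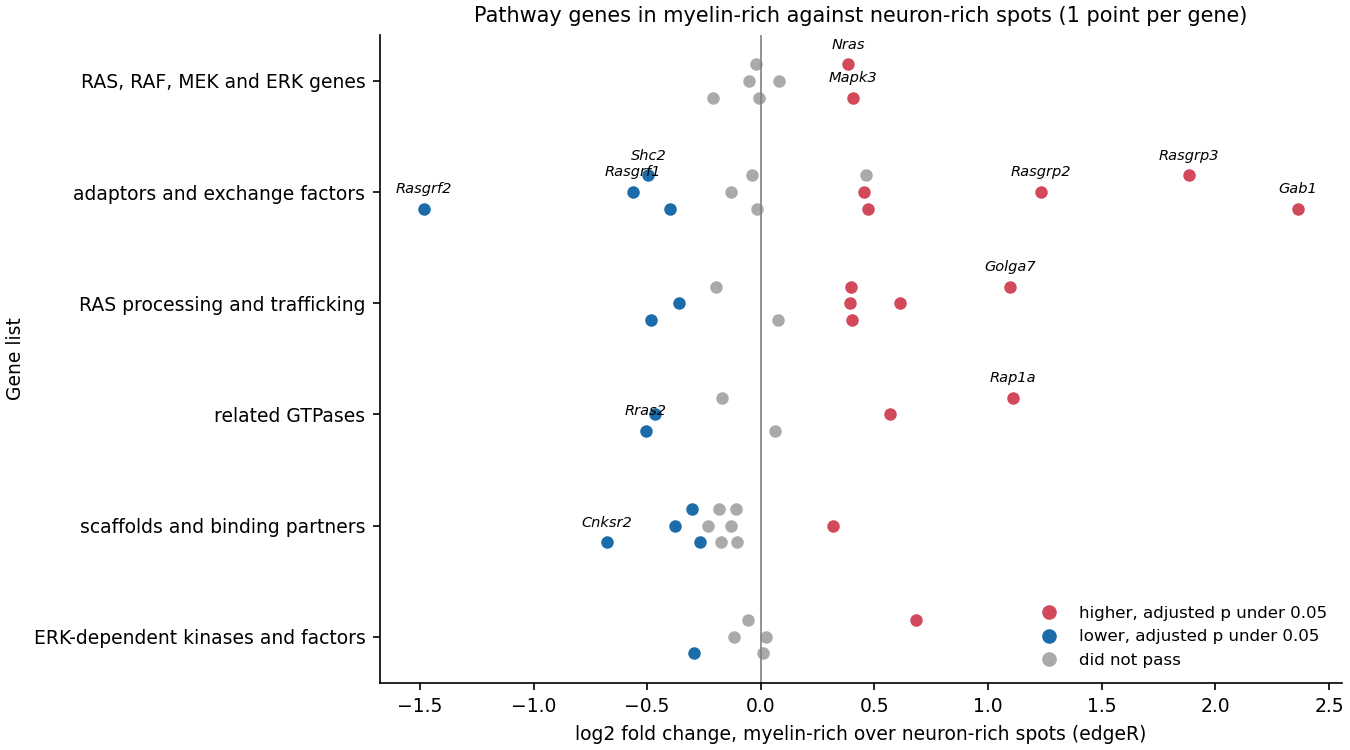
Log2 fold change, myelin-rich over neuron-rich spots, of the 7 cascade genes and 45 other pathway genes by list, with 1 point per gene (red called higher, blue called lower, gray not called). *Gab1* reached 2.36 and *Rasgrf2* -1.48, while the 7 cascade genes lay between -0.21 and 0.41.

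In choroid plexus-marker against neuron-rich spots, 4 of 45 pathway genes were called higher and 6 lower, against 13.4% and 9.62% of all genes. *Gab1* (1.33), *Iqgap1* (1.22), a scaffold of the cytoskeleton and of ERK signalling, *Rasgrp2* (1.07) and *Pde6d* (0.47), a carrier of prenylated RAS, were higher. *Rasgrf2* (-0.89), *Cnksr2* (-0.77), *Mras* (-0.67), *Rasgrf1* (-0.49) and *Ywhab* (-0.40), a 14-3-3 protein that binds RAF, were the 5 lowest. Against myelin-rich spots 0 of 45 were higher and 3 lower (3.72% and 2.02% of all genes), *Gab1* (-1.03), *Golga7* (-0.87) and *Rap1a* (-0.85). In sections 1 and 4, myelin markers summed to 3740 and 7591 CPM in choroid plexus-marker spots, against 2449 and 2242 CPM in neuron-rich spots. Striatal markers summed to 1265 and 1241 CPM, against 507 and 260 CPM. The part of this other tissue in the calls was not tested.

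In OPC-marker-high against other spots, 2 of 46 pathway genes were higher and 4 lower, against 2.59% and 3.17% of all genes in a comparison whose calls depend on the block and on single sections. *Gab1* (0.67, SE 0.12, edgeR adjusted p = 0.000446) and *Golga7* (0.22) were higher. *Cnksr2* (-0.27), *Rasgrp1* (-0.26), *Mras* (-0.24) and *Ywhaz* (-0.15) were lower. All of these genes were called in the same direction in myelin-rich against neuron-rich spots. Myelin markers in OPC-marker-high spots were at 129% to 143% and neuron markers at 80.6% to 86.5% of their level in the other spots. The part of this in the calls was not tested.

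In striatal-marker against deep-layer cortex-marker spots, 5 of 44 pathway genes were higher and 7 lower, against 14.8% and 15.4% of all genes. *Rasgrp2*, an exchange factor known to be abundant in striatum, rose most (log2 fold change 2.48, SE 0.13, edgeR adjusted p = 3.37e-16). *Cnksr2* (0.45), *Icmt* (0.44), the carboxyl methyltransferase of RAS, *Rasgrp1* (0.27) and *Ywhaz* (0.23) were also higher. *Rras2* (-2.35, SE 0.34, edgeR adjusted p = 1.24e-06), *Rasgrf2* (-1.08), the RAF scaffold *Ksr1* (-0.87), the ERK-binding protein *Pea15a* (-0.71) and *Lypla1* (-0.52), a depalmitoylating enzyme, were the 5 lowest.

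The pattern of each cascade gene over 13 sums (the region-marker and myelin-rich spots of the 4 sections, centred within each section) was compared with those of 9307 genes with a mean of at least 10 CPM. These sums come only from striatal, deep-layer, upper-layer and myelin-rich spots, share sections and in part share spots, so each Pearson r is a description. The genes named are the closest of all 9307, and no spread of r over the others is given. The closest to *Hras* were *Ramp1* (r = 0.99), *Insyn1* (0.98) and *Kctd17* (0.98). The closest to *Nras* were *Stx17* (0.93), *Trak2* (0.92) and *Vps35l* (0.92). *Braf* was close to *Mdh2* (0.99) and *Lgi1* (0.98).

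*Araf* was closest to *Mtln* (0.94), *Meg3* (0.91) and *Usp11* (0.91), the last of which lies 77167 bases from it on chromosome X. *Map2k1* was closest to *Celf5* (0.95), *Hdlbp* (0.94) and *Rps6ka3* (0.93), *Map2k2* to *Ncbp3* (0.95), *Slc2a8* (0.92) and *Ddx46* (0.90), and *Mapk3* to *Hs3st1* (0.96), *Calu* (0.95) and *E2f5* (0.93). Among the 7 genes themselves, *Hras* ran opposite to *Nras* (r = -0.89) and *Mapk3* (-0.82), *Braf* ran with *Map2k1* (0.80), and the other pairs lay between -0.61 and 0.68.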

How the data were processed

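Fresh frozen brain sections of *Nf1*+/- mice, 10 µm thick and 4 in number, were profiled on Visium slides. The authors aligned and counted the reads with Space Ranger 1.3.1 (build mm10, per the labels) and deposited UMI counts, without scaling. A UMI collapses amplified copies of 1 captured molecule, so a level depends on capture at the 3′ end and on permeabilization. Spots with under 500 UMIs (1 to 26 per section) were dropped. Each spot was scored for a marker list by the excess of its UMIs over the number predicted from its total, in units of the square root of that number. Choroid plexus-marker spots were instead picked by the number of markers with a UMI, with no correction for depth. The sums over spot groups were tested in edgeR 4.0.16 (R 4.3.3) by the quasi-likelihood test, with TMM factors, the filterByExpr filter and sections as blocks, and p-values were adjusted by Benjamini-Hochberg over all genes tested. Standard errors and 95% intervals were derived from the p-value and degrees of freedom of each test. The block was used because the groups lie in 1 piece of tissue. Departures from group means correlated between groups of 1 section at 0.39 to 0.55 (myelin-rich and neuron-rich), 0.55 to 0.71 (OPC-marker-high and other) and 0.16 to 0.24 (striatal and deep-layer cortex). Paralog ratios were taken after adding 0.5 UMIs, in Python 3.11.15 with numpy 2.4.6, and tested by sign flips with scipy 1.17.1. The code was tested on simulated data.

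The 7 genes, marker lists and pathway lists were chosen with earlier results of these data known. Named pathway genes are the 5 largest rises and 5 largest falls called in each comparison, and the 3 genes most alike to each of the 7 are named, apart from 1 that is not reported here. Alternatives were total-UMI scaling, no filter on low counts, no block, DESeq2 1.42.0, each section left out, other shares of spots, equal weight of markers, a minimum of 2000 UMIs, at least 5 choroid plexus markers, choroid plexus-marker spots of all 4 sections or of none, and totals without mitochondrial genes. The striatal comparison was added after the data were seen.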

Additional observations from a re-analysis of the deposited data

Results flagged for a closer look

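Over 31 sets of 4 section values, 2 had a section far from the other 3, where chance alone gives about 1.55. The log2 ratio of *Hras* between OPC-marker-high and other spots was -0.22 in section 1 and -0.025 to -0.021 in the other sections. The log2 ratio of *Nras* between striatal-marker and deep-layer cortex-marker spots was 0.028 in section 2 and -0.55 to -0.49 in the others. Neither gene was called in that comparison.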

How the results depend on the processing

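Levels by region kept their values within the spread between sections under every alternative run, and levels by section under all but 1. That was leaving mitochondrial genes out of the totals, which raised every mean (*Hras* to 353 CPM, *Nras* to 31.6 CPM) and kept their order. The numbers of the 7 genes called were as follows. In myelin-rich against neuron-rich spots, 2 were called, against 1 without the replicate block, 1 by DESeq2, 4 with the top 10% of spots, and 1 to 2 with a section left out (1 without section 3 or without section 4). Of all genes other than markers, the main test there called 19.6% higher and 18.4% lower. The number of all genes called stayed within a set factor of its main value in 12 of 12 alternatives. In choroid plexus-marker against neuron-rich spots, 0 were called, against 1 with at least 5 markers. Against myelin-rich spots, 0 were called, against 2 with at least 5 markers and 1 each with no filter on low counts, the top 10% of spots or choroid plexus-marker spots of all 4 sections. In striatal-marker against deep-layer cortex-marker spots, 2 were called, against 1 without the replicate block, 1 by DESeq2 and 1 to 2 with a section left out (1 without section 2 or without section 3, and 2 without section 4, which were *Hras* and *Mapk3*). The shares of all genes called by the main tests are given above, and those under each alternative are not given. None of these counts is thus read as a result about the 7 genes. The cause of these changes was not tested.

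Over all genes other than markers, 860 were called in OPC-marker-high against other spots, against 8 without the replicate block, 333 by DESeq2, 452 with the top 5% of spots and 448 to 890 with a section left out (448 without section 2, 535 without section 3). In choroid plexus-marker against neuron-rich spots 3074 were called, and 1667 to 2844 with a section left out (1667 without section 4). Leaving out section 1 or section 4 leaves 1 section with choroid plexus-marker spots, which is then assumed to vary like the other groups. Against myelin-rich spots 767 were called, against 1200 with no filter on low counts and 1498 with at least 5 markers. In striatal-marker against deep-layer cortex-marker spots 3270 were called, and 1682 by DESeq2.

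The values that turned direction were as follows, with every one a gene or ratio that was not called in the main test. With the top 30% of spots, the ratio of *Map2k1* to *Map2k2* differed by 0.029. In myelin-rich against neuron-rich spots, *Hras* was at -0.051 (log2) with the top 10% of spots, and with a section left out *Araf* ranged from -0.060 to 0.011 and *Map2k2* from -0.037 to 0.010. In choroid plexus-marker against neuron-rich spots, *Hras* was at 0.015 and *Mapk3* at 0.016 with the top 10%, *Braf* at 0.025 with the top 30% and at 0.0053 with at least 2000 UMIs, *Araf* at -0.039 with total-UMI scaling, -0.033 with no filter and -0.34 with at least 5 markers, *Map2k2* at 0.051 with at least 5 markers, and *Mapk3* at 0.021 without the block. With a section left out, *Hras* ranged from -0.17 to 0.11, *Nras* from -0.078 to 0.46, *Braf* from -0.087 to 0.026, *Araf* from -0.054 to 0.083 and *Mapk3* from -0.057 to 0.0035. Against myelin-rich spots, *Hras* was at 0.066 and *Map2k1* at 0.13 with the top 10%, *Map2k1* at 0.031 without the block, and *Braf* at -0.22, *Araf* at -0.31 and *Map2k2* at 0.082 with at least 5 markers. With a section left out, *Araf* ranged from -0.018 to 0.14, *Map2k1* from -0.18 to 0.038 and *Map2k2* from -0.45 to 0.018. In OPC-marker-high against other spots, *Map2k1* was at -0.0074 with no filter and -0.065 with the top 5%, *Map2k2* at 0.041 with the top 5% and 0.027 with the top 20%, and *Mapk3* at 0.019 with the top 20%. With a section left out, *Braf* ranged from -0.059 to 0.0038, *Map2k1* from -0.020 to 0.074 and *Map2k2* from -0.051 to 0.0058. In striatal-marker against deep-layer cortex-marker spots, *Braf* was at -0.00085 and *Araf* at -0.087 with total-UMI scaling, *Map2k2* at 0.019 with the top 10%, and with a section left out *Map2k2* ranged from -0.10 to 0.020. None of these reversed values was past the threshold. The depth limits *Nras* most, since its sums held as few as 19 UMIs.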
